A study of Mus musculus with 12 samples.

Results

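The suppressors of cytokine signalling (SOCS proteins) are 8 genes in the mouse, Socs1 to Socs7 and Cish, and their transcripts are described here in BV-2, a mouse microglial cell line kept in culture by immortalisation. Members were found by name: every array probe whose RefSeq accession belongs to one of the 8 symbols was taken, whatever its signal. All 8 genes were on the array, with 10 probes. Socs4 and Socs6 had 2 probes each and the other 6 genes 1 each, so that 1 probe stood for each of the 8 genes among the 19322 genes and transcripts tested. The study compared 4 groups of the same cell line, with 3 one-colour Agilent arrays per group and 12 in all. One group was left untreated. The other groups received 20 µM curcumin, 100 ng/ml LPS, or 100 ng/ml LPS with 20 µM curcumin, each for 6 h. Curcumin is a polyphenol of turmeric, and LPS (lipopolysaccharide) is the bacterial cell wall component sensed by Toll-like receptor 4. The labels give no vehicle and no time for the untreated cells, and they do not say whether arrays of a group came from separate cultures, so p-values measure the spread between these arrays, which may be technical.

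Cytokines such as interferons and interleukin-6 signal through receptor-bound Janus kinases (JAKs), which phosphorylate STAT transcription factors. STATs switch on SOCS genes, and the SOCS proteins then bind the receptor or the kinase through an SH2 domain and recruit a ubiquitin ligase of elongins and cullin-5 through their SOCS box, which closes a negative feedback loop. In macrophages and microglia, Socs1 and Socs3 are known as brakes on interferon, interleukin-6 and Toll-like receptor responses.

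All 10 probes were well above background on all 12 arrays, except for 1 spot of the second Socs4 probe on LPS+curcumin array 2, which the scanner software marked as an outlier and which was dropped. None of their spots was saturated. Levels are log2 signals relative to the 75th percentile of the same array, so a level of 0 lies at that percentile. Probes differ in brightness, so levels are compared between groups for 1 probe and never between genes. Over the 12 arrays, 58.0 to 65.9% of spots were well above background. The 75th percentile lay between 304 and 979 signal units. It stood 1.66 ± 0.15 log2 units above the spike-in RNAs in untreated cells and 1.42 ± 0.14 with LPS, but 0.65 ± 0.18 with curcumin and 0.70 ± 0.67 with both agents (SD, n = 3 each). The choice of scaling therefore moves the changes under curcumin more than those under LPS. LPS+curcumin array 1 stood apart from its group: its mean correlation with the arrays of cells given LPS alone was 0.982, and 0.950 with those given curcumin alone. For LPS+curcumin arrays 2 and 3 the same correlations were 0.940 and 0.923 with LPS alone, and 0.984 and 0.985 with curcumin alone. For Socs1, Socs2, Socs3 and Cish, values without LPS+curcumin array 1 are also given, a setting chosen after these correlations were seen. That fit keeps only arrays 2 and 3 of the LPS+curcumin group. Array 2 had 1594 spots flagged as outliers, against 87 to 163 on the other arrays of the study. Array 3 had the lowest 75th percentile of all arrays (304). In that fit 55.1% of all genes were called for LPS+curcumin against LPS and 53.9% against untreated cells. With all 12 arrays these shares were 18.7% and 24.5%. The arrays lie on 3 slides, replicate number and slide coincide, and each group always takes the same position, so group and position cannot be told apart. Of 14 matched microglial and macrophage markers, 12 were well above background on all 12 arrays, as were 3 of 5 T and B cell markers, 2 of 5 oligodendrocyte, 1 of 5 neuron, 1 of 5 endothelial and 0 of 5 astrocyte markers. Their part in the results was not tested.

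**Figure D1:**
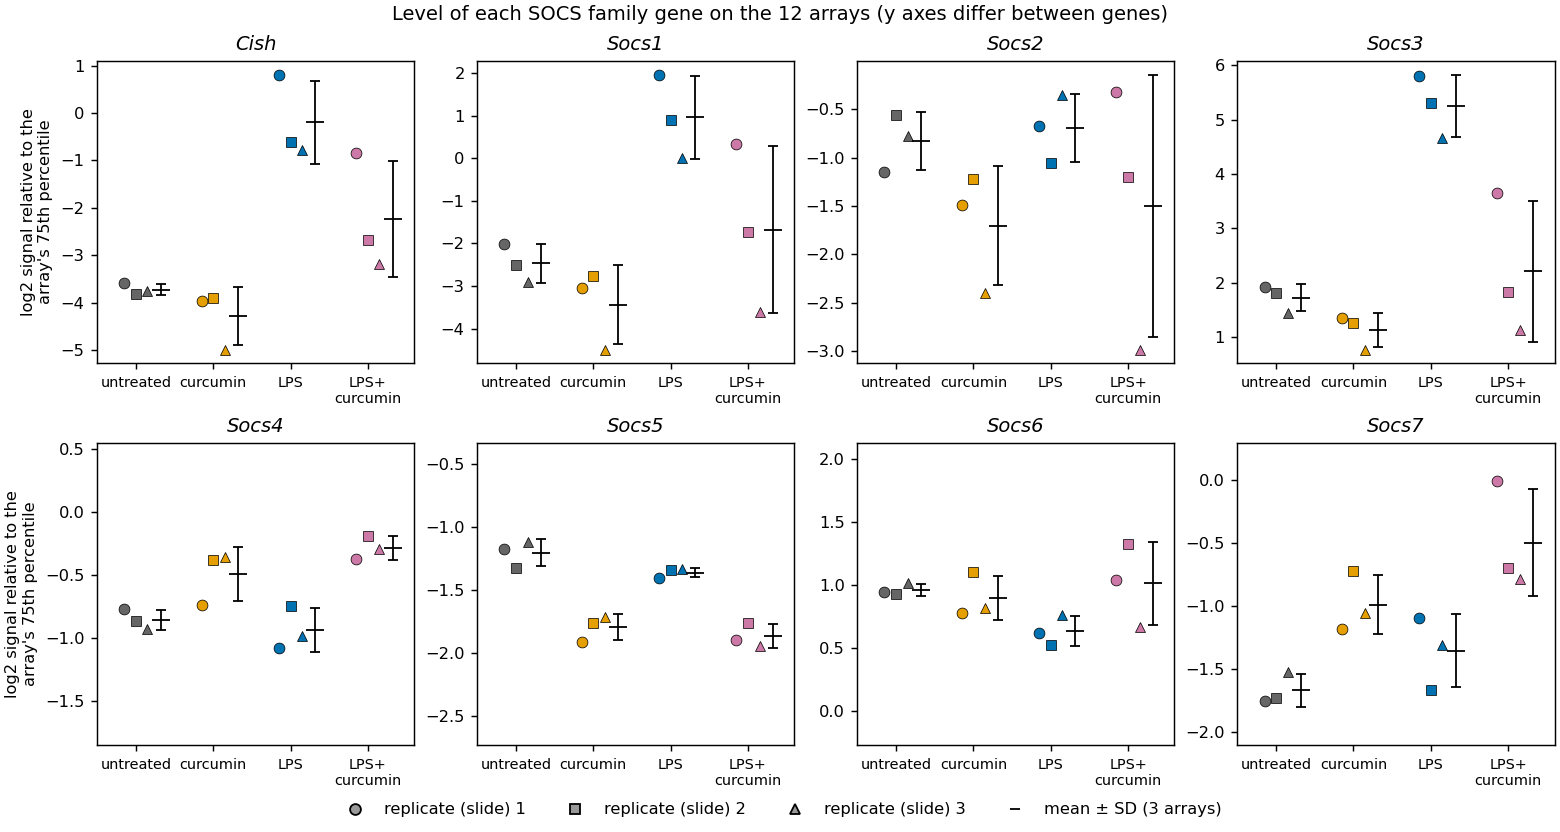
Level of each SOCS family gene on the 12 arrays, as log2 signal relative to the array's 75th percentile (y axis, scaled separately for each gene), in the 4 groups (x axis). Symbols are single arrays, with the shape giving the slide, and the bars are mean ± SD of 3 arrays. Cish, Socs1 and Socs3 had their highest group means with LPS, while the other 5 genes spanned a narrower range or varied within groups.

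The feedback inhibitors Socs3, Cish and Socs1 were the members that rose with LPS. Socs3, which binds the shared interleukin-6 receptor chain gp130 and blocks JAK activity there, had levels of 1.92, 1.80 and 1.45 on the 3 untreated arrays. It reached 5.79, 5.30 and 4.66 on the LPS arrays. All 3 LPS arrays lay far above all 3 untreated arrays, and the smallest difference within a slide was 3.21. Socs3 rose 11.5-fold (log2 fold change 3.53 ± 0.53, SE, limma adjusted p = 0.0021). The arrays measure bulk RNA, in which fewer cells of a type and less RNA per cell cannot be told apart.

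Cish, a STAT5 target that restrains receptors signalling through STAT5, was at -3.59, -3.83 and -3.76 in untreated cells. On the LPS arrays it was at 0.81, -0.61 and -0.79. The groups did not overlap, and replicate 1 was the highest of the LPS arrays. Cish rose 11.5-fold (log2 fold change 3.53 ± 0.59, limma adjusted p = 0.0040), with differences within slides between 2.97 and 4.40.

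Socs1, which blocks the JAK catalytic site through a kinase inhibitory region and limits interferon signalling, was at -2.004, -2.50 and -2.90 in untreated cells. With LPS it was at 1.96, 0.90 and 0.0061. Every LPS array again exceeded every untreated array, but both groups spread more widely than for Socs3. Socs1 rose 10.7-fold (log2 fold change 3.42 ± 0.85, limma adjusted p = 0.0401). This call was held in 4 of 12 fits that left out 1 array, with adjusted p between 0.0047 and 0.175, and in 1 of 5 scalings. It was lost without untreated array 1, 2 or 3, curcumin array 1 or 2, LPS array 1 or 2, or LPS+curcumin array 2. With the slide as a block its adjusted p was 0.0032. Socs3 and Cish were called under all 5 scalings and in all 12 fits that left out 1 array. After the normexp background correction, a model-based alternative, Socs3 remained called (3.47, limma adjusted p = 0.0078) while Cish (2.77, adjusted p = 0.0879) and Socs1 (2.99, adjusted p = 0.0761) did not. With all 4 arrays of slide 2 left out, none of the 3 was called, the adjusted p being 0.161 for Socs3, 0.165 for Cish and 0.573 for Socs1.

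For LPS against untreated cells, 3 of 8 SOCS genes were thus called higher and 0 lower, whereas 5.73% of all genes tested were called in either direction and 4.12% higher and 1.61% lower. The groups did not overlap for 5 of 8 members and for 32.6% of all genes. The median log2 fold change was 0.22 over the 8 members and 0.0052 over all genes. The other 5 members had log2 fold changes between -0.32 (Socs6) and 0.31 (Socs7), with adjusted p of 0.553 or more.

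**Figure D2:**
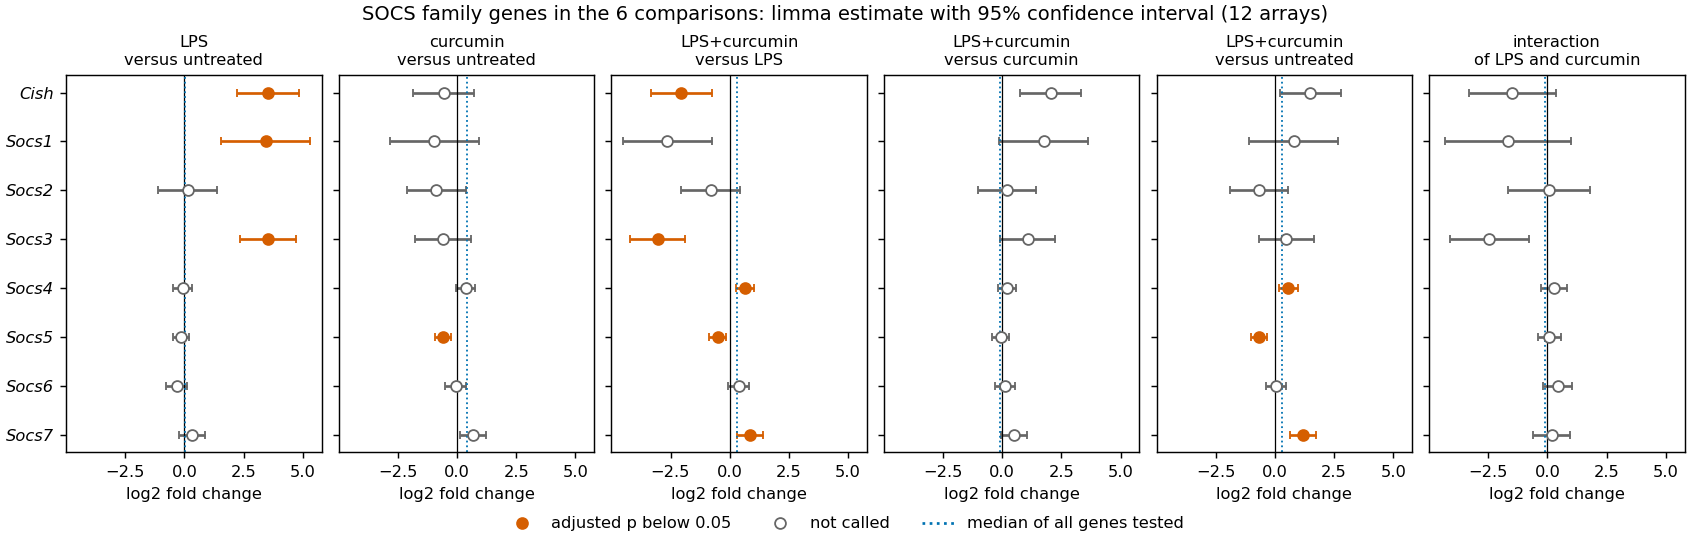
Log2 fold change of each SOCS family gene (x axis) in the 6 comparisons (panels), with 95% confidence intervals from limma on 12 arrays. Filled symbols have an adjusted p below 0.05 and dotted lines mark the median of all genes tested. Socs3, Cish and Socs1 lie near 3.5 for LPS against untreated cells, and Socs5 lies below 0 in the 3 comparisons in which it was called.

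The start sites of these 3 genes are shown because they rose together and are known STAT and interferon targets. Promoters were in the RefSeq-derived table used (build GRCm38.p6) for 4 of 8 members: Socs1, Socs3, Socs4 and Cish. The motifs searched were 3, each searched on both strands in the 300 bases around each start (250 before and 50 after): the STAT palindrome TTCNNNGAA, the interferon response element core GAAANNGAAA and the NF-kB core GGGANNTTCC. They are found in 8.3%, 3.44% and 1.47% of 32851 promoters. Below are the 250 bases before the start of Socs1 (chr16:10785537-10785786, minus strand) and of Socs3 (chr11:117969367-117969616, minus strand), and the first 20 transcribed bases of Cish (chr9:107296659-107296678, plus strand), all 5′ to 3′ with motif matches in capitals.
Socs1: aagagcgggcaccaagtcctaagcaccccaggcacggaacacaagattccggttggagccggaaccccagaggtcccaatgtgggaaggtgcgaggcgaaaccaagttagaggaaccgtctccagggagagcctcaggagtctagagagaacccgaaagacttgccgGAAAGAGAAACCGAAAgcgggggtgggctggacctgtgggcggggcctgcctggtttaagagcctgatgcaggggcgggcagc
Socs3: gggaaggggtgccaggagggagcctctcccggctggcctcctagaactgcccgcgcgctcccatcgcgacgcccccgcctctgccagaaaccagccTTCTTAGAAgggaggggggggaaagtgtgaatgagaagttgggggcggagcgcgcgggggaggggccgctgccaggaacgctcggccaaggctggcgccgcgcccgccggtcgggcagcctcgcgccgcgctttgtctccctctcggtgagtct
Cish: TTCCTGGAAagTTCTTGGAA

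Socs1 holds 2 overlapping interferon response element cores that begin 83 and 77 bases before the start. Socs3 holds 1 STAT palindrome that begins 154 bases before the start. Cish holds 2 STAT palindromes, at bases 1 and 12 of the transcript, and none in the 250 bases before it. The NF-kB core was found in none of the windows searched for members. Socs4, which was not called with LPS, has 0 matches to the 3 motifs in its window, and each motif is also absent from most promoters. A match is a description of letters, and binding was not measured.

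None of these 3 genes was called with curcumin alone. Socs3 was at 1.36, 1.26 and 0.77 on the curcumin arrays, all below the untreated arrays (log2 fold change -0.59 ± 0.53, limma adjusted p = 0.382). Cish was at -3.97, -3.89 and -4.99, also below all untreated arrays (-0.56 ± 0.59, limma adjusted p = 0.456). Socs1 was at -3.05, -2.76 and -4.49 and overlapped the untreated arrays (-0.97 ± 0.85, limma adjusted p = 0.376). Array 3 of the curcumin group was the lowest of the 12 for Socs1, Socs3 and Cish.

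Socs3 and Cish fell when curcumin was added to LPS. Socs3 was at 3.65, 1.84 and 1.14 on the LPS+curcumin arrays, so that array 1 lay between the LPS and untreated levels while arrays 2 and 3 lay within or below the untreated levels. Against LPS alone Socs3 fell 8.25-fold (log2 fold change -3.05 ± 0.53, limma adjusted p = 0.0050), without overlap and with differences within slides of -2.14, -3.47 and -3.52. The difference was -3.77 without LPS+curcumin array 1 (limma adjusted p = 1.03e-05). Socs3 was called lower under all 5 scalings and in all 12 fits that left out 1 array. Of all 29 alternatives, 26 called it, with limma adjusted p up to 0.274. The call was lost with the compared groups alone and with all arrays of slide 2 or of slide 3 left out.

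Cish was at -0.84, -2.67 and -3.19 with both agents, below every LPS array and above every untreated array. It fell 4.10-fold against LPS alone (log2 fold change -2.04 ± 0.59, limma adjusted p = 0.0368), with differences within slides of -1.65, -2.06 and -2.40. When LPS+curcumin array 1 was left out, the difference was -2.73 (limma adjusted p = 0.00080). The call held under all 5 scalings but in only 2 of 12 fits that left out 1 array, those without LPS+curcumin array 1 or curcumin array 3, and the adjusted p in the others reached 0.136. With the slide as a block the adjusted p was 0.0091.

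Socs1 was at 0.32, -1.74 and -3.60 with both agents, the widest spread of any member within a group (SD 1.96). LPS+curcumin array 1 lay above LPS array 3, so the groups overlapped. The difference of -2.63 ± 0.85 was not called (limma adjusted p = 0.0536). It was -3.63 without LPS+curcumin array 1 (limma adjusted p = 0.0016), and with the slide as a block -2.63 at an adjusted p of 0.0083. The differences within slides were -1.63, -2.64 and -3.61.

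**Figure D3:**
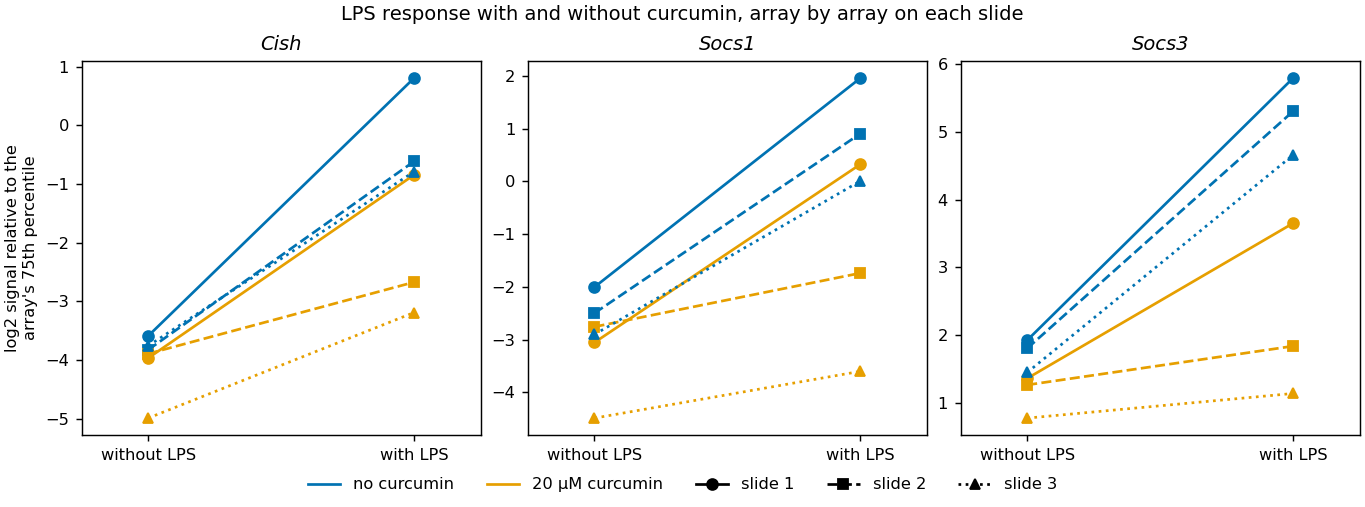
Level of Cish, Socs1 and Socs3 (y axis, log2 signal relative to the array's 75th percentile) without and with LPS (x axis), joined for arrays of the same slide. Blue lines are cells without curcumin and orange lines cells with 20 µM curcumin. The orange line of slide 1 rises by 3.13 for Cish, 3.38 for Socs1 and 2.29 for Socs3, and those of slides 2 and 3 by 0.36 to 1.80.

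Whether LPS still changed these genes in the presence of curcumin was read from LPS+curcumin against curcumin, where 0 of 8 members and 0.212% of all genes were called (0.202% higher and 0.0104% lower, limma). At an unadjusted threshold of 0.05, 1 member, Cish, passed, as did 5.86% of all genes. Cish was higher by 2.05 ± 0.59 without overlap (limma adjusted p = 0.489), Socs1 by 1.76 ± 0.85 (0.869) and Socs3 by 1.08 ± 0.53 (0.869). Without LPS+curcumin array 1 these differences were 1.35, 0.76 and 0.36. The 95% intervals of the fit with all arrays ran from 0.76 to 3.34 for Cish, from -0.12 to 3.64 for Socs1 and from -0.094 to 2.25 for Socs3.

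The interaction asks whether curcumin acted differently on LPS-treated and on unstimulated cells. It was called for 0 of 8 members and for 0.73% of all genes (0.0207% higher and 0.709% lower, limma). Socs3 had the value farthest from 0, -2.45 ± 0.75 (limma adjusted p = 0.296), followed by Socs1 at -1.66 ± 1.21 and Cish at -1.48 ± 0.83. At an unadjusted threshold of 0.05, 1 member, Socs3, passed, as did 6.63% of all genes. With that array 1 of LPS+curcumin left out, the interaction for Socs3 was -3.17 and was called (limma adjusted p = 0.0031), whereas Cish (-2.17, adjusted p = 0.136) and Socs1 (-2.66, adjusted p = 0.254) were not. In that fit 2.22% of all genes were called.

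Across the 4 groups, Cish, Socs1 and Socs3 shared the order curcumin, untreated, LPS+curcumin, LPS from low to high. For Cish no 2 neighbours in that order overlapped. For Socs3 untreated and LPS+curcumin overlapped, and for Socs1 every pair of neighbours did. Against untreated cells, the group given both agents was not called for Cish (1.49 ± 0.59, limma adjusted p = 0.0839), Socs1 (0.80 ± 0.85, 0.497) or Socs3 (0.48 ± 0.53, 0.507). Without LPS+curcumin array 1 the values for Socs1 and Socs3 changed sign, to -0.20 and -0.24, and that for Cish was 0.79 (limma adjusted p = 0.165).

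Socs5, which promotes degradation of the epidermal growth factor receptor and has been linked to interleukin-4 signalling, was the only member called with curcumin alone. Its levels were -1.17, -1.32 and -1.12 in untreated cells and -1.91, -1.76 and -1.71 with curcumin. The groups were tight and did not overlap. Socs5 fell 1.51-fold (log2 fold change -0.59 ± 0.16, limma adjusted p = 0.0190). Under the spike-in scaling the fall was -1.60, and it was called under all 5 scalings. It lost its call without untreated array 1 or 3 or any 1 curcumin array, with adjusted p up to 0.0759. After normexp the difference was 0.12 and not called.

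With LPS, Socs5 was at -1.41, -1.34 and -1.34 (log2 fold change -0.16 ± 0.16, limma adjusted p = 0.839). With both agents it was at -1.90, -1.76 and -1.95, below every LPS and every untreated array. It fell by 0.51 ± 0.16 against LPS (limma adjusted p = 0.0449) and fell by 0.67 ± 0.16 against untreated cells (limma adjusted p = 0.0143), again under all 5 scalings. The call against LPS was held in only 1 of 12 fits that left out 1 array, that without LPS+curcumin array 1, with adjusted p up to 0.12 in the others. The call against untreated cells was lost only without untreated array 1 or 3. From low to high the groups were LPS+curcumin, curcumin, LPS and untreated, and only the first 2 overlapped.

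Socs7, an adaptor-binding member studied mainly in insulin signalling, was at -1.76, -1.73 and -1.52 in untreated cells and at -1.18, -0.73 and -1.05 with curcumin. These groups did not overlap, but the difference of 0.68 ± 0.25 was not called (limma adjusted p = 0.0583). With LPS it was at -1.09, -1.67 and -1.31, and with both agents at -0.0055, -0.70 and -0.79, which were among the 4 highest of the 12 arrays. Socs7 rose by 0.86 ± 0.25 against LPS (limma adjusted p = 0.0370) and by 1.17 ± 0.25 against untreated cells (limma adjusted p = 0.0093). On the spike-in scale these values were 0.14 and 0.22 and not called, and the value for curcumin alone against untreated cells turned its sign, to -0.32. The call against LPS was held in 2 of 5 scalings and the call against untreated cells in 3 of 5. The call against LPS held in 3 of 12 fits that left out 1 array, those without curcumin array 2 or LPS+curcumin array 1 or 3, and the call against untreated cells in all 12.

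Socs4, a relative of Socs5 that also acts on the epidermal growth factor receptor, was at -0.77, -0.87 and -0.93 in untreated cells and at -1.08, -0.75 and -0.99 with LPS. With both agents it was at -0.37, -0.19 and -0.29, above all arrays of those 2 groups. It rose by 0.65 ± 0.18 against LPS (limma adjusted p = 0.0300) and by 0.57 ± 0.18 against untreated cells (limma adjusted p = 0.0389). The sign turned on the spike-in scale, to -0.064 and -0.39, and with median scaling, to -0.081 and -0.31. The call was held in 3 of 5 scalings against LPS and in 2 of 5 against untreated cells. Against LPS the call was lost without any 1 LPS array, untreated array 2 or 3, or LPS+curcumin array 2. Against untreated cells it held in 3 of 12 fits that left out 1 array, those without curcumin array 1, LPS array 2 or LPS+curcumin array 1. Its second probe differed by 0.53 ± 0.20 against LPS from 2 LPS+curcumin arrays, 1 spot having been dropped, and was not called (limma adjusted p = 0.0865). Curcumin alone gave 0.36 ± 0.18, without overlap and not called (limma adjusted p = 0.128).

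Socs2, the regulator of growth hormone receptor signalling, and Socs6, which binds the KIT receptor, were called in none of the 6 comparisons. Socs2 was at -1.15, -0.56 and -0.78 in untreated cells, at -1.49, -1.22 and -2.40 with curcumin and at -0.68, -1.06 and -0.36 with LPS. With both agents it ranged from -0.32 on array 1 to -2.99 on array 3, with -1.20 on array 2. Curcumin lay below untreated on all 3 slides (-0.88 ± 0.56, limma adjusted p = 0.228). Without LPS+curcumin array 1, Socs2 was called lower with both agents than with LPS (-1.40, limma adjusted p = 0.0326) and than in untreated cells (-1.26, limma adjusted p = 0.0484). That fit called 55.1% and 53.9% of all genes in these comparisons. Socs6 stayed between 0.52 and 1.32 over the 12 arrays and differed by -0.32 ± 0.20 with LPS, lower on all 3 slides and without overlap, but not called (limma adjusted p = 0.553). Its second probe gave -0.34 ± 0.20 for the same comparison. Under spike-in and median scaling, Socs6 was called lower with curcumin than in untreated cells (-1.07 and -0.90). Under these scalings the median of all genes was -0.59 and -0.42, and 6626 and 4849 of 19322 genes were called lower.

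**Figure D4:**
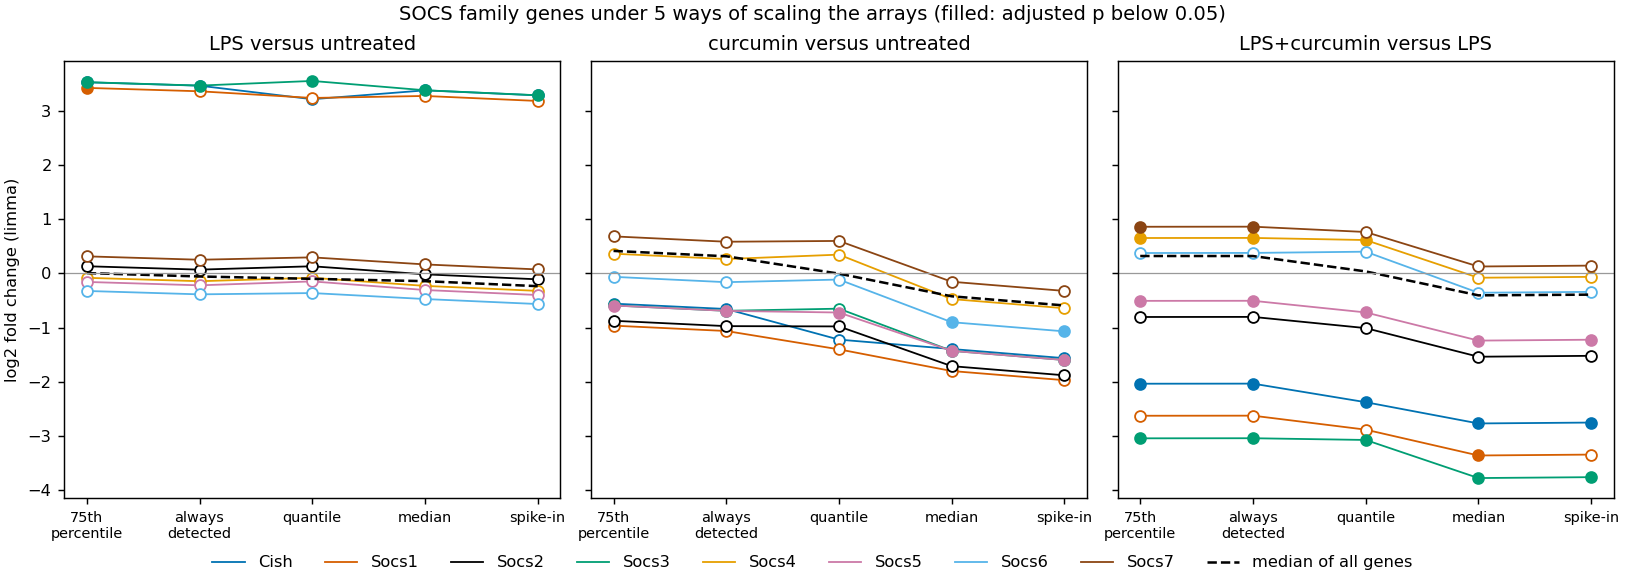
Log2 fold change of each member (y axis) under 5 ways of scaling the arrays (x axis) in 3 comparisons (panels). Filled points have an adjusted p below 0.05 and the dashed line is the median of all genes tested. Socs3 and Cish stay filled for LPS and for LPS+curcumin against LPS, Socs5 stays filled in both curcumin panels, and Socs4 crosses 0 for LPS+curcumin against LPS under median and spike-in scaling.

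By the count of members, curcumin against untreated cells called 1 of 8 lower and 0 higher, whereas 29.2% of all genes were called in either direction (21.9% higher and 7.28% lower). LPS+curcumin against LPS called 2 higher and 3 lower, against 18.7% of all genes (12.7% higher and 5.99% lower). LPS+curcumin against untreated cells called 2 higher and 1 lower, against 24.5% of all genes (18.2% higher and 6.26% lower). Groups without overlap were found for 6 of 8 members with curcumin alone (65.3% of all genes), for 5 with LPS+curcumin against LPS (28.6%), for 1 with LPS+curcumin against curcumin (7.76%) and for 4 with LPS+curcumin against untreated cells (35.9%). The median log2 fold change over the members was -0.58, -0.66 and 0.53 in the first, second and last of these, where the median of all genes was 0.41, 0.32 and 0.32. On the spike-in scale the median of all genes was -0.59 for curcumin and -0.39 for LPS+curcumin against LPS, so the size and sign of small curcumin effects are relative to the scaling chosen.

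Likeness of pattern was measured as the root mean square difference between 2 genes' log2 levels over the 12 arrays, each centred on its own mean, among 11995 named genes. Among the members, Cish and Socs3 were 0.50 apart, Socs1 and Cish 0.51 and Socs1 and Socs3 0.51, while each was 1.41 or more from any other member. The gene nearest to Socs3 was Ifi204 (0.31), an interferon-inducible gene, followed by Cebpd (0.37), a transcription factor of acute-phase responses, and Tnfrsf1b (0.39), a receptor of tumour necrosis factor. Cish lay nearest to Nod2 (0.27), a sensor of bacterial peptidoglycan, then to Cflar (0.31), an inhibitor of caspase-8, and Irf1 (0.36). Socs1 lay nearest to Cebpd (0.46), then to Cish and Socs3. Socs7 lay nearest to Gss (0.22), the glutathione synthetase, Prdx1 (0.22), a peroxiredoxin, and Pdlim7 (0.23). Socs4 lay nearest to Zfp935 (0.10), Nkapd1 (0.13) and Znrf2 (0.13), and Socs5 to Mrpl44 (0.12), Zswim3 (0.13) and Eml4 (0.13); the SD over the 12 arrays was 0.31 for Socs4 and 0.30 for Socs5, against 1.78 for Socs3.

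Transcripts of other genes of the pathway also changed with LPS, and their part in the rise of Socs3, Cish and Socs1 was not tested. Of 13 ligands of JAK-coupled receptors tested, 7 rose and 0 fell, with a median log2 fold change of 1.93. Over all genes tested 4.12% rose and 1.61% fell with LPS. Il6 rose by 10.40 ± 0.91 (limma adjusted p = 5.99e-05). Ifnb1, interferon beta, also rose (limma adjusted p = 0.00032), but it was well above background on only 1 of 3 untreated arrays, so no fold is given. Ebi3, a subunit of interleukin-27, rose by 2.75 ± 0.33 (0.00048). Csf3, the granulocyte colony-stimulating factor, was not well above background in untreated cells and was at least 1617-fold higher with LPS (limma adjusted p = 3.26e-06). These 4 were called under all 5 scalings, as were 5 of the 7 ligands. Over all genes, 1.73% were called higher with LPS under all 5 scalings.

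Of 24 receptors, 1 rose with LPS (4.17%, near the 4.12% of all genes), Il13ra1 (1.11 ± 0.21, limma adjusted p = 0.0082). No receptor was called higher under median or spike-in scaling. Of 11 JAKs, STATs and Irf9, 6 rose and 0 fell, 1 of them under all 5 scalings. Among the 6 were Stat2 (3.00 ± 0.61, limma adjusted p = 0.0146), Irf9 (2.63 ± 0.60) and Stat3 (1.43 ± 0.33), each not called under all 5. Of 16 genes known to be induced by STATs, 11 rose and 0 fell, led by the chemokine gene Cxcl10 (8.33 ± 0.35, limma adjusted p = 5.04e-07), Ifit1 (7.60 ± 0.66) and Irf7 (5.18 ± 0.47), with 5 called under all 5 scalings. Of 14 other inhibitors of the pathway, 1 rose (7.14%): Usp18, which blocks the interferon receptor IFNAR2 (5.17 ± 0.59, limma adjusted p = 0.00034). Of 9 partners of the SOCS box ubiquitin ligase, 1 rose (Ube2f, 0.84 ± 0.18, limma adjusted p = 0.0181). None of the 9 was called under median or spike-in scaling.

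With curcumin added to LPS, 6 of the 13 ligands fell and 3 rose (median -1.33), where 5.99% of all genes fell and 12.7% rose. The log2 fold change was -6.23 ± 0.72 for Csf3 (limma adjusted p = 0.00079), -6.13 ± 0.91 for Il6 (0.0025) and -2.09 ± 0.33 for Ebi3 (0.0034), whereas Il4 rose by 1.86 ± 0.37 (0.0093). The 6 falls were called under all 5 scalings and none of the 3 rises was. Over all genes, 4.99% were called lower and 3.34% higher under all 5 scalings. Of the 16 STAT-induced genes, 10 fell and 0 rose (median -1.82), 9 of them under all 5 scalings. Their log2 fold changes included -4.09 ± 0.47 for Irf7 (limma adjusted p = 0.00079), -2.41 ± 0.35 for Cxcl10 (0.0024) and -3.38 ± 0.66 for Ifit1 (0.0082). Of the JAKs, STATs and Irf9, 5 of 11 fell, including Stat3 (-1.36 ± 0.33, limma adjusted p = 0.0200). Of the other inhibitors 2 fell: Usp18 (-4.75 ± 0.59, limma adjusted p = 0.0012) and Ptpn6, the phosphatase SHP-1 (-1.32 ± 0.32, adjusted p = 0.0195). Of the receptors 3 of 24 fell, where 18.7% of all genes were called: Csf3r (-1.60 ± 0.35, limma adjusted p = 0.0129), Il13ra1 (-0.83 ± 0.21, adjusted p = 0.0220) and Il10ra (-3.04 ± 0.90, adjusted p = 0.0391), of which Il10ra was not called on the spike-in scale. With median scaling 8 of 24 receptors fell and 0 rose (33.3%). There 3121 of 19322 genes were called lower and 1001 higher (21.3% in either direction). In the ubiquitin ligase list 1 of 9 rose, Arih2 (0.77 ± 0.22, limma adjusted p = 0.0379), which was 0.053 on the spike-in scale and not called. Without LPS+curcumin array 1, a setting chosen after its correlations were seen, 12 of 16 STAT-induced genes were called lower and 1 higher. Of 13 ligands 6 were called lower and 4 higher, and of 11 JAKs, STATs and Irf9 7 lower and 0 higher. Of 19580 genes in that fit, 2861 were called lower and 7932 higher, 55.1% in either direction. In the same fit 5 receptors were called higher and 9 lower, 5 ubiquitin ligase partners higher, 3 other inhibitors higher and 4 lower, and 5 other SOCS box proteins higher and 6 lower. Against curcumin alone, LPS+curcumin called 2 of 16 STAT-induced genes higher, Cxcl10 (6.62 ± 0.35, limma adjusted p = 9.04e-06) and Ifit1 (4.02 ± 0.66, adjusted p = 0.0420). Cxcl10 was called there under all 5 scalings and Ifit1 was not. Of 10 known substrates and partners of SOCS proteins, 1 rose with LPS and fell when curcumin was added, and this was Irf7.

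Other SOCS box proteins, which share the ligase-recruiting box but not the SH2 domain, were called in both directions under curcumin. Of 21 tested, 3 rose and 4 fell with curcumin alone (33.3%, against 29.2% of all genes). On the spike-in scale 3 rose and 9 fell (57.1%, against 42%), and with median scaling 3 rose and 6 fell (42.9%, against 33.3%). Asb5, well above background on 1 of 3 untreated arrays, rose (limma adjusted p = 0.00059). Asb9, which binds creatine kinase, was not well above background in untreated cells and was at least 20.6-fold higher (limma adjusted p = 0.00077). Spsb4 fell by 1.71 ± 0.29 (limma adjusted p = 0.0028). With curcumin added to LPS, 3 rose and 2 fell (23.8%, against 18.7% of all genes). Asb9, well above background on 2 of 3 LPS+curcumin arrays, was at least 6.28-fold higher (limma adjusted p = 0.0055) and Spsb4 changed by -1.96 ± 0.29 (limma adjusted p = 0.0025).

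Curcumin alone called 4 of 13 ligands higher, where 29.2% of all genes were called (21.9% higher and 7.28% lower). Under all 5 scalings 2 of the 13 ligands were called higher, against 6.94% of all genes. Il11 rose by 3.54 ± 0.75 (limma adjusted p = 0.0072) and Csf3 was at least 9.49-fold higher than in untreated cells (limma adjusted p = 0.0013). Stat5b fell by 0.58 ± 0.19 (limma adjusted p = 0.0451) and was the only one of 11 JAKs, STATs and Irf9 called. That share (9.09%) is near the 7.28% of all genes called lower. Under spike-in or median scaling 4 of the 11 were called lower, and 2 under quantile scaling and under scaling to always detected probes. Of the STAT-induced genes 2 of 16 rose and 1 fell, Bcl6, a transcriptional repressor (-2.17 ± 0.44, limma adjusted p = 0.0062). On the spike-in scale 1 rose and 6 fell, and with median scaling 1 rose and 5 fell. Of the 19322 genes tested, 1480 were called higher and 6626 lower on the spike-in scale (42%). With median scaling 1580 were called higher and 4849 lower (33.3%). The lists are read from the same arrays as the members.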

How the data were processed

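RNA of 12 BV-2 samples was measured on one-colour Agilent arrays on 3 slides. The authors deposited scanner files of linear intensity, from Agilent Feature Extraction, whose version is 10.5.1.1 in the file headers and 9.1 in the submitters' processing notes. Background was already subtracted, per the file headers. Each array has 45018 spots, 1639 of them controls, and 41174 distinct probes. Of the probes, 25097 matched a RefSeq symbol and 16077 did not. The members and gene lists were chosen with earlier results of these data known. Levels are log2 intensities from which the 75th percentile of the array's non-control spots was subtracted. Outlier spots were dropped and spots of a probe averaged. A probe was kept if some group had it well above background on its 3 arrays. The brightest such probe stood for a gene. A model of 4 group means over 12 arrays was fitted with limma 3.58.1 (R 4.3.3, lmFit and eBayes), with the packages jsonlite (2.0.0) and data.table (1.17.8). P-values are two-sided and adjusted by Benjamini-Hochberg over 19322 genes and transcripts, and a gene was called at an adjusted p below 0.05. Log2 fold changes carry standard errors and levels carry SD (n = 3).

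Where all arrays of a group failed to show a gene well above background, its change is a bound ("at least N-fold"). The dim group then counts, on each array, at the dimmest spot well above background, or at its own signal if that is higher. All 8 members were named, with the 3 genes nearest each called member. Other names come from the up to 4 called genes of smallest adjusted p per list and comparison; not all of these are named. The fit was tested on simulated data. The alternatives were 4 other scalings (quantile, median, spike-in RNAs, always-detected probes), normexp background correction (offset 50, on median signals), the series' deposited value table of intensities, filters, probe choice, outlier spots, slide as a block or random block, the compared groups alone, and leaving out arrays or slides. The precision is limited by 3 arrays per group.

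Same-numbered arrays share a slide per the file headers. Their deviations from the group means correlated at 0.237 to 0.568 for untreated and LPS and at 0.213 to 0.567 for untreated and curcumin, but at -0.020 at the lowest for LPS and LPS+curcumin.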

Additional observations from a re-analysis of the deposited data

How the results depend on the processing

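The 12 calls of members kept their direction in 343 of 348 values under the alternatives and their call in 227. For LPS against untreated cells (3 members called) normexp gave 1 and the fit without replicate 2 gave 0. Over all genes, 1107 were called in the main fit, 197 with normexp and 198 without replicate 2. For curcumin against untreated cells (1) median scaling, spike-in scaling and slide as a random block gave 2 each, normexp 0, the compared groups alone 4, and fits without 1 array or 1 replicate number 0 to 2. The main fit called 5634 of all genes, median scaling 6429, spike-in scaling 8106 and slide as a random block 7972. Normexp called 878 and the compared groups alone 10542. For LPS+curcumin against LPS (5) spike-in scaling gave 3, normexp and no filter 1 each, the compared groups alone 0, and fits without 1 array 1 to 7, or 0 without replicate 2 or 3. There the calls over all genes were 3618 in the main fit, 2984 with spike-in scaling and 89 with normexp. They were 2704 with no filter, 300 with the compared groups alone and 10793 without LPS+curcumin array 1. Without replicate 2 or 3 they were 9 and 244. For LPS+curcumin against untreated cells (3) spike-in scaling gave 1, normexp and the compared groups alone 0 each, and fits without arrays 0 to 4. Of all genes, 4733 were called in the main fit, 8240 with spike-in scaling, 88 with normexp and 704 with the compared groups alone. For the interaction (0) the fits without LPS+curcumin array 1 or without replicate 1 gave 1. These fits called 434 and 269 of all genes, and the main fit 141. LPS+curcumin against curcumin gave 0 under every alternative. The 5 values of these calls that turned were Socs5 with curcumin under normexp (0.12), Socs4 against LPS under median (-0.081) and spike-in scaling (-0.064), and Socs4 against untreated cells under the same scalings (-0.31 and -0.39). Socs6 with both agents against untreated cells, which was not called, turned and was called lower under median scaling (-0.83). There the median of all genes was -0.56 and 36% of them were called. Sign changes of values called in neither fit are not listed. The causes were not tested. The replicate block, which is also the slide, gave 3, 1, 6, 0, 4 and 0 members called in the 6 comparisons. Over all genes it called 1505, 8130, 5576, 68, 6621 and 229. It added Socs1 (-2.63, limma adjusted p = 0.0083) for LPS+curcumin against LPS and Cish (1.49, limma adjusted p = 0.0223) for LPS+curcumin against untreated cells, and changed no other member's call. With 3 arrays per group, several calls of Socs4, Socs5 and Socs7 depended on single arrays.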
